A study of Homo sapiens with 60 samples.

Results

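The endoplasmic reticulum (ER) folds secreted and membrane proteins, and the 42 genes described here encode its chaperones, folding enzymes, degradation machinery and stress sensors. They were taken as a listed set of symbols, with no measured value in the rule. The list was nevertheless chosen with earlier results of these data known. Each symbol matched 1 gene of the 60675 in the deposited table, and all 42 passed the filter on low counts, which kept 17680 genes. By role, 12 are grouped as the Hsp70 chaperone system, 2 are lectin chaperones and 7 form disulfide bonds. Another 9 serve ER-associated degradation, 8 serve translocation, signal peptide removal and export, and 4 are sensors or transcription factors. The Hsp70 group is a broad label that also holds HSP90B1, of the Hsp90 family, and CRELD1 and CRELD2.

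RNA was sequenced from SW1783, an established human astrocytoma cell line, after 24 h with ethanol extracts of medicinal plants or of 2 herbal formulas. The vehicle group had 3 libraries and received DMSO, at 0.1% by the sample labels and 2% by the series text. Extracts of Zizyphi Fructus (2 libraries per dose), Citri Unshius Pericarpium, Cimicifugae Rhizoma and Aconiti Lateralis Radix Preparata (3 per dose as deposited), and of the formulas Yijung-tang (2 per dose) and Banhasasim-tang (1 per dose), were given at 500, 100 and 20 µg/mL. Coptidis Rhizoma (2 libraries per dose) was given at 14, 2.8 and 0.56 µg/mL and Bupleuri Radix (3 per dose) at 210, 42 and 8.4 µg/mL, because an extract with an IC20 under 500 µg/mL was used at that IC20 and at dilutions of it. The 3 doses of each extract are called high, medium and low below, and each extract by the first word of its name. The first replicate in the high-dose Aconiti group and the first in the low-dose Yijung-tang group diverged from their fellow libraries and were left out. That left 58 libraries, with 2 for high-dose Aconiti and 1 for low-dose Yijung-tang. Nothing in the labels says that replicates came from separate cultures, so the spread that the p-values rest on may be technical.

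Newly made proteins enter the ER through the SEC61 channel, lose their signal peptide, and are folded by HSPA5 (BiP) with its co-chaperones, by the lectins CALR and CANX, and by protein disulfide isomerases. Proteins that fail to fold are pulled back to the cytosol by the SEL1L-SYVN1 complex and degraded. When unfolded proteins build up, the sensors ERN1 (IRE1α), EIF2AK3 (PERK) and ATF6 start the unfolded protein response, in which spliced XBP1 and cleaved ATF6 activate many of the genes of this set and PERK acts through ATF4. Human promoters of this response often carry the ER stress response element (ERSE), known to be bound by ATF6 together with NF-Y, or the shorter ERSE-II.

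The upstream sequences of 5 members are shown because they hold these elements and belong to genes whose levels moved between doses. Windows of 250 bases before to 50 after the RefSeq start (build GRCh38.p14) were found for 38 of the 42 genes, the exceptions being PDIA3, DERL1, DERL3 and SEC24D. ERSE was searched as CCAAT, any 9 bases, then CCACG, and ERSE-II as ATTGG, any 1 base, then CCACG, on both strands, and capitals mark the matches. The stretches printed are HSPA5 at chr9:125241344-125241543 (minus strand), HERPUD1 at chr16:56931892-56932047 (plus), SDF2L1 at chr22:21642061-21642260 (plus), HYOU1 at chr11:119057206-119057405 (minus) and XBP1 at chr22:28800598-28800682 (minus). Each lies upstream of the RefSeq start and outside every GENCODE v29 exon, and each is written 5′ to 3′ along the gene's strand. In SDF2L1 and HYOU1 the element lies on the opposite strand, so the capitals show its reverse complement.
HSPA5: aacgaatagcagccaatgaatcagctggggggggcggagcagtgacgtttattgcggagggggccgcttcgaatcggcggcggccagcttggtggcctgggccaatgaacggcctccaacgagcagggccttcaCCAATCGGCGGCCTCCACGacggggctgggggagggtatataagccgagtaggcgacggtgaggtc
HERPUD1: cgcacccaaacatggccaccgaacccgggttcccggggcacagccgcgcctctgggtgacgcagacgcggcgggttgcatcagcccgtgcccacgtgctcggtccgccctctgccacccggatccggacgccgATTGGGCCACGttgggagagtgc
SDF2L1: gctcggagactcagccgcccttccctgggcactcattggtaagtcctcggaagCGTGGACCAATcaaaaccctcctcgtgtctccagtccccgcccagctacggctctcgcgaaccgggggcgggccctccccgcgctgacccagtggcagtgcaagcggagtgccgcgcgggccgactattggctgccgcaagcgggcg
HYOU1: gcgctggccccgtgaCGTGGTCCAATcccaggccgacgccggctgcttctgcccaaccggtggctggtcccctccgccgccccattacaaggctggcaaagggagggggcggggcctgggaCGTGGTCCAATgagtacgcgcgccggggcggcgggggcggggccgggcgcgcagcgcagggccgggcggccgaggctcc
XBP1: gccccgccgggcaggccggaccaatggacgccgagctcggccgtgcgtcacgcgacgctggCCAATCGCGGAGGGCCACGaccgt

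ERSE occurred in 8 of the 38 members with a window (21.1%), against 25 of 27305 gene symbols in the whole promoter table (0.0916%). These were HSPA5, HSP90B1 (2 matches), CRELD2, CALR, CANX, PDIA6, ERO1B and XBP1. ERSE-II occurred in 3 members (7.89%), HYOU1 (2 matches), SDF2L1 and HERPUD1, against 0.0696% of all symbols. The XBP1-type element TGACGTGG, searched on both strands, occurred in 2 members (5.26%), SSR3 and HYOU1, against 0.927% of all symbols, and in HYOU1 it overlapped an ERSE-II match. In all, 11 of 38 members (28.9%) held ERSE or ERSE-II, against 0.161% of symbols. The elements are known from promoters of the response that many members belong to. These shares therefore describe the set and are not an independent enrichment. A match describes these letters only, and binding was not measured.

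The 58 libraries held 15996157 to 30990264 expected counts, and the 3 vehicle libraries, with 15996157 to 20858002, were at the low end of that range. The common biological coefficient of variation was 0.0431. Levels are given as CPM, counts scaled to a common library total after TMM normalisation, without correction for gene length, so they are compared between libraries and not between genes. In bulk RNA, fewer cells with a transcript and less of it per cell cannot be told apart. Of the astrocyte and glioma markers, VIM (3484 to 7962 CPM) and CD44 (2018 to 2984 CPM) were high, whereas GFAP, S100B, AQP4 and ALDH1L1 (4 of 9) were under 0.5 CPM in every library. The others were SLC1A3 (1.89 to 39.1 CPM), NES (1.21 to 12.6) and SLC1A2 (0.0334 to 0.565). Lists for other cell types held both absent and expressed genes. MOG (1 of 4 oligodendrocyte markers), AIF1 and ITGAM (2 of 5 leukocyte and microglia markers), CDH5 (1 of 4 endothelial markers) and EPCAM and CDH1 (2 of 5 epithelial markers) were under 0.5 CPM in every library. KRT18 (51.6 to 245 CPM), KRT8 (8.6 to 25), CD68 (131 to 275), CD74 (26 to 42.5), PTPRC (2.79 to 14.2) and KDR (21.7 to 37.8) of the same lists were expressed. Of the 5 neuron markers TUBB3 (33.5 to 131 CPM), SNAP25 (4.24 to 37.5) and SYT1 (18.9 to 71.9) were expressed, and RBFOX3 and STMN2 did not exceed 0.554 and 0.517 CPM. MBP (5.02 to 11.7 CPM) was the most abundant oligodendrocyte marker. The summed levels given below follow mainly the most abundant genes of a list, such as VIM and CD44 or MBP. They need not reflect its other genes. Dose comparisons were made within an extract, whose libraries share a set number in the labels, whereas no vehicle library carries such a number, so that set and treatment cannot be told apart against the vehicle.

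High-dose against low-dose Coptidis raised 37 of the 42 genes, lowered 1 and left 4 that did not pass (edgeR quasi-likelihood test, Benjamini-Hochberg adjusted p under 0.05 over 17680 genes). Over all genes tested, 65.6% passed, 33.2% higher and 32.4% lower. Because the set was chosen with earlier results known, the comparison with these shares is not a blind test. The median log2 fold change of the 42 was 0.73, against -0.02 for all genes. All 12 genes grouped as the Hsp70 system rose, as did both lectin chaperones and 6 of 7 disulfide genes. So did 8 of 9 degradation genes, 5 of 8 translocation and export genes, and all 4 sensors and transcription factors. The count was 38 of 42 in each of the 4 fits that left out 1 Coptidis library. Summed marker levels moved in the same comparison, from 7332 to 7525 CPM at the low dose to 10305 to 10337 CPM at the high dose for the 9 astrocyte and glioma markers, from 214 CPM in both libraries to 307 to 319 CPM for the 5 leukocyte and microglia markers, and from 207 to 220 CPM to 165 to 167 CPM for the 5 epithelial markers. The 5 neuron markers went from 149 to 151 CPM to 107 to 113 CPM, the 4 oligodendrocyte markers from 7.7 to 8.4 CPM to 11.6 to 13.7 CPM, and the 4 endothelial markers from 28.9 to 29.2 CPM to 35.2 to 37.4 CPM. Their part in the result was not tested.

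**Figure D1:**
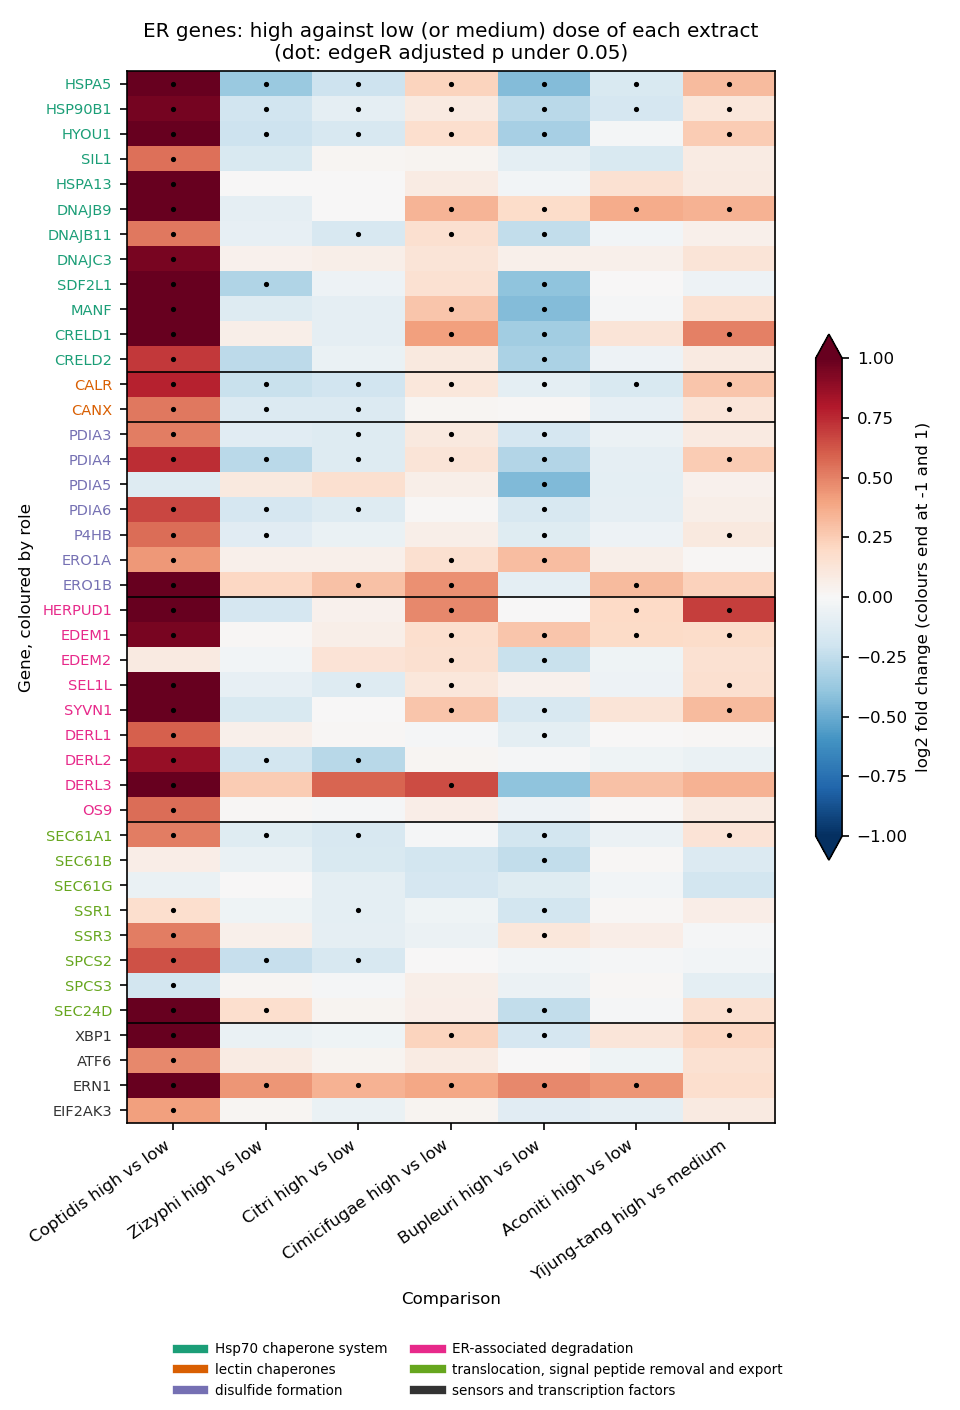
Log2 fold change (colour, ending at -1 and 1) of 42 ER genes (rows, grouped by role) between doses of 7 extracts (columns), with a dot where the edgeR adjusted p is under 0.05. The Coptidis column holds 37 rises, Cimicifugae (20 rises) and Yijung-tang (16) hold no fall, and Bupleuri holds 22 falls with 5 rises, ERN1 among them.

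HSPA5, the Hsp70 chaperone of the ER lumen, stood at 3688 and 3701 CPM in the low-dose Coptidis libraries, 5952 and 5774 CPM at the medium dose, and 19291 and 18762 CPM at the high dose. The 3 vehicle libraries had 3748, 3688 and 3705 CPM. Both low-dose libraries lay within the vehicle range, and no high-dose library overlapped any other dose. The high dose was 5.16-fold above the low dose (log2 2.37 ± 0.04 SE, edgeR adjusted p = 9.44e-41). Its co-chaperone DNAJB9 (ERdj4), which with HSPA5 also restrains ERN1, rose from 26.6 and 28.5 to 192 and 181 CPM. That was 6.79-fold (log2 2.76 ± 0.06, adjusted p = 2.48e-34), and 47.2 and 46.4 CPM were reached at the medium dose. HSP90B1 (GRP94), the ER member of the Hsp90 family, rose from 1716 and 1742 to 3405 and 3288 CPM (log2 0.96 ± 0.04). HYOU1, a large Hsp70 relative that acts as nucleotide exchange factor of HSPA5, rose from 511 and 516 to 1106 and 1113 CPM (log2 1.12 ± 0.03). The smallest rises in this group were those of DNAJB11, an HSPA5 co-chaperone (0.53 ± 0.04), and SIL1, another nucleotide exchange factor (0.55 ± 0.05). On the log2 scale HSPA13 rose by 1.39, CRELD1 by 1.37, SDF2L1 by 1.36, MANF by 1.00, DNAJC3 by 0.95 and CRELD2 by 0.71.

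**Figure D2:**
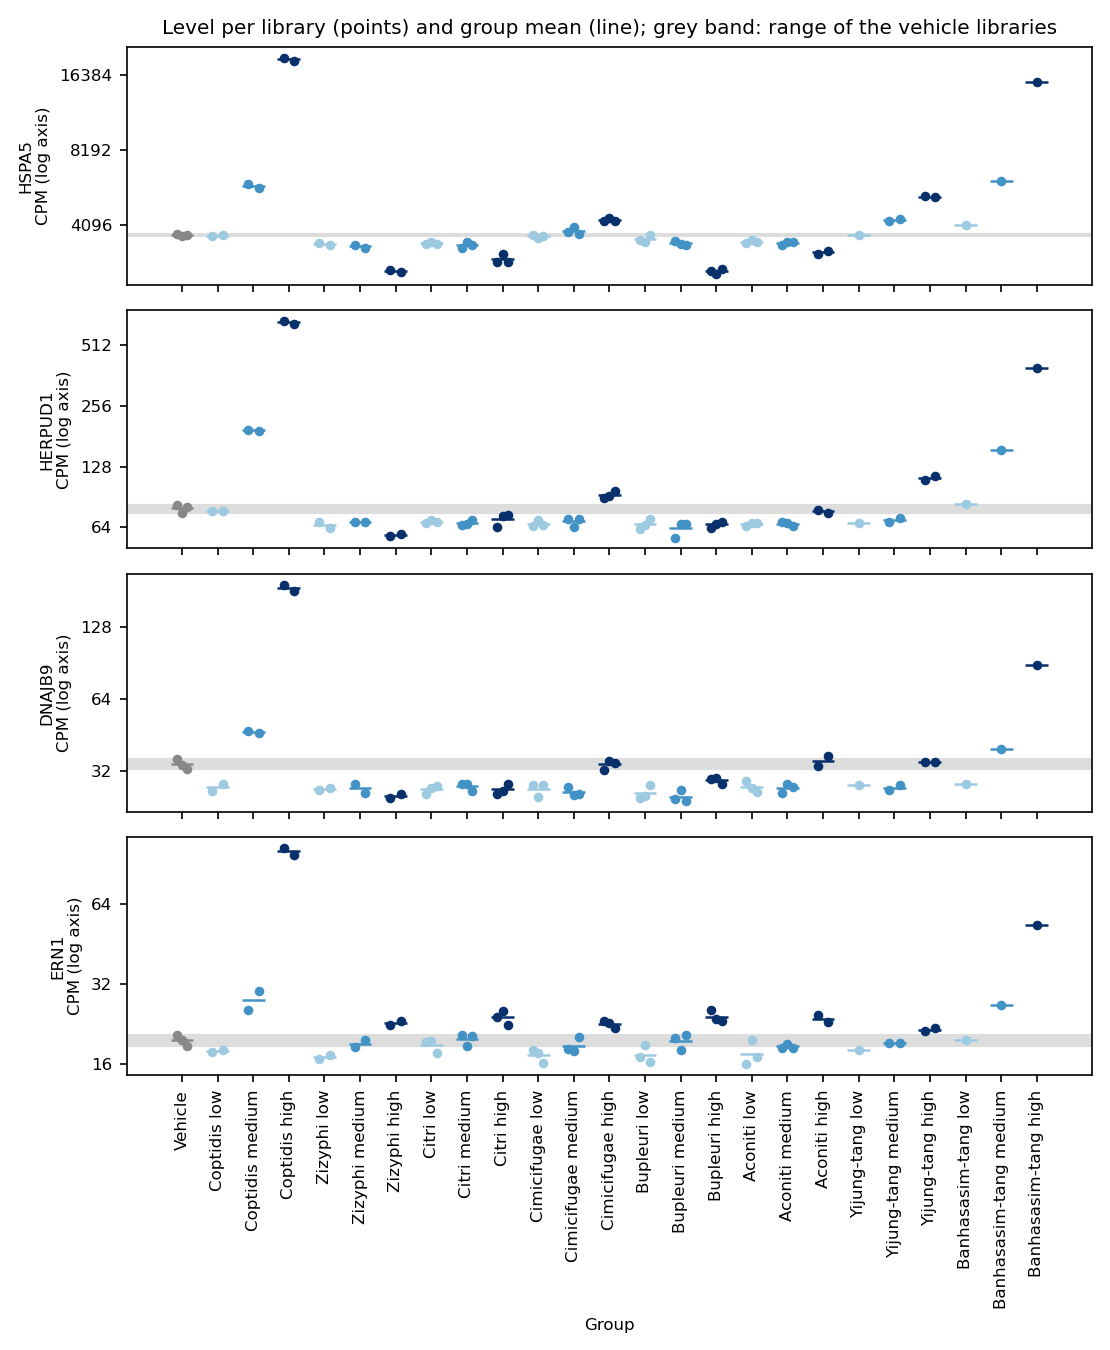
CPM (log axis) of HSPA5, HERPUD1, DNAJB9 and ERN1 in each of 58 libraries (points, darker with dose) with group means (lines) and the range of the 3 vehicle libraries (grey band). High-dose Coptidis is highest in all 4 panels (HSPA5 19291 and 18762 CPM), with the single high-dose Banhasasim-tang library next (15453 CPM).

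The lectin chaperones CALR and CANX, which hold glycoproteins that carry a trimmed glycan, rose as well. CALR went from 1899 and 1884 to 3165 and 3248 CPM (log2 0.77 ± 0.04), and CANX from 2483 and 2479 to 3662 and 3478 CPM (log2 0.53 ± 0.03). Both pairs of doses were apart. Among disulfide genes, the oxidase ERO1B rose from 12.6 and 12.6 to 31.3 and 30 CPM (log2 1.29 ± 0.08, edgeR adjusted p = 1e-17). Its paralog ERO1A rose by 0.43 ± 0.04. The isomerase PDIA4 rose from 747 and 732 to 1223 and 1243 CPM (log2 0.74 ± 0.03), and PDIA6, P4HB and PDIA3 rose by 0.67, 0.56 and 0.51. PDIA5 did not pass, at 21.5 and 20.4 CPM against 19.3 and 18.9 CPM (log2 -0.13).

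Degradation genes held the largest change of the set. HERPUD1, a membrane protein of the degradation complex, had 77 and 76.9 CPM at the low dose, 195 and 193 CPM at the medium dose and 675 and 657 CPM at the high dose. The vehicle libraries had 82.2, 75.5 and 80.8 CPM. The high dose was 8.68-fold above the low dose (log2 3.12 ± 0.06, edgeR adjusted p = 4.38e-37), and the medium dose lay outside both. DERL3, a derlin of the same complexes, rose from 1.22 and 1.28 to 5.51 and 5.68 CPM (log2 2.16 ± 0.23), with 1.22 and 1.31 CPM at the medium dose. Its level rests on few reads, 16 to 108 per library over the 58 libraries, and its exons overlap SMARCB1 on the opposite strand. The ubiquitin ligase SYVN1 (HRD1) rose by 1.57 ± 0.07 and its partner SEL1L by 1.52 ± 0.04. DERL2 (0.87), DERL1 (0.60), the lectin OS9 (0.56) and the mannosidase-like EDEM1 (0.95, from 102 and 111 to 204 and 207 CPM) also rose. EDEM2 did not pass (0.09).

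Translocation and export genes moved least. SEC24D, a cargo-binding subunit of the COPII coat, rose from 130 and 133 to 305 and 295 CPM (log2 1.19 ± 0.05, edgeR adjusted p = 9.32e-26). The signal peptidase subunit SPCS2 rose from 59.5 and 68.3 to 102 and 97.4 CPM (0.64 ± 0.07), although 4 annotated pseudogenes bear its name and reads could be split among them. SPCS3, another subunit of the same peptidase, fell from 225 and 239 to 209 and 199 CPM (log2 -0.18 ± 0.05, edgeR adjusted p = 0.000436). The channel's large subunit SEC61A1 rose by 0.51 ± 0.03, whereas its small subunits SEC61B (0.07) and SEC61G (-0.07) did not pass. SSR3 (0.51) and SSR1 (0.17), of the translocon-associated complex, rose.

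Among the sensors, ERN1 rose from 17.8 and 18.2 to 104 and 98.2 CPM, with 25.7 and 30.1 CPM at the medium dose. Its high dose was 5.65-fold above the low dose (SE 0.07 on the log2 scale, edgeR adjusted p = 3.41e-30). XBP1, the factor whose mRNA ERN1 splices, rose from 113 and 110 to 356 and 331 CPM (log2 1.63 ± 0.07), and its splicing cannot be read from gene counts. ATF6 went from 80.3 and 79.7 to 111 and 112 CPM (0.48 ± 0.05). EIF2AK3 went from 24 and 27.3 to 35.6 and 32.2 CPM (0.41 ± 0.08). All 4 differences passed and none of the 4 pairs of groups overlapped.

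The rise was graded over the Coptidis doses. In 31 of 42 genes every low-dose library lay below every medium-dose library and every medium-dose library below every high-dose library, and group means rose over the 3 doses in 36. Dose order was counted for the members only, so no share over all genes stands beside these counts. Between the medium and the low dose, a comparison added after the design was set, 27 genes rose and none fell (edgeR, 29 and 0 at an unadjusted p under 0.05), against 7.68% and 5.89% of all genes. No other tool was run on it. HERPUD1 (log2 1.34 ± 0.06), DNAJB9 (0.77 ± 0.07), HSPA5 (0.67 ± 0.03) and ERN1 (0.64 ± 0.08) had the largest medium-dose rises. DERL3 did not move between these doses beyond its error (0.02 ± 0.27), and DERL2 stood at -0.06 ± 0.06. Against the vehicle, 6 genes were higher and 8 lower at the low dose (background 3.39% and 3.94% of all genes), 24 and 1 at the medium dose (13.6% and 12.3%), and 37 and 3 at the high dose (34% and 32.6%).

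**Figure D3:**
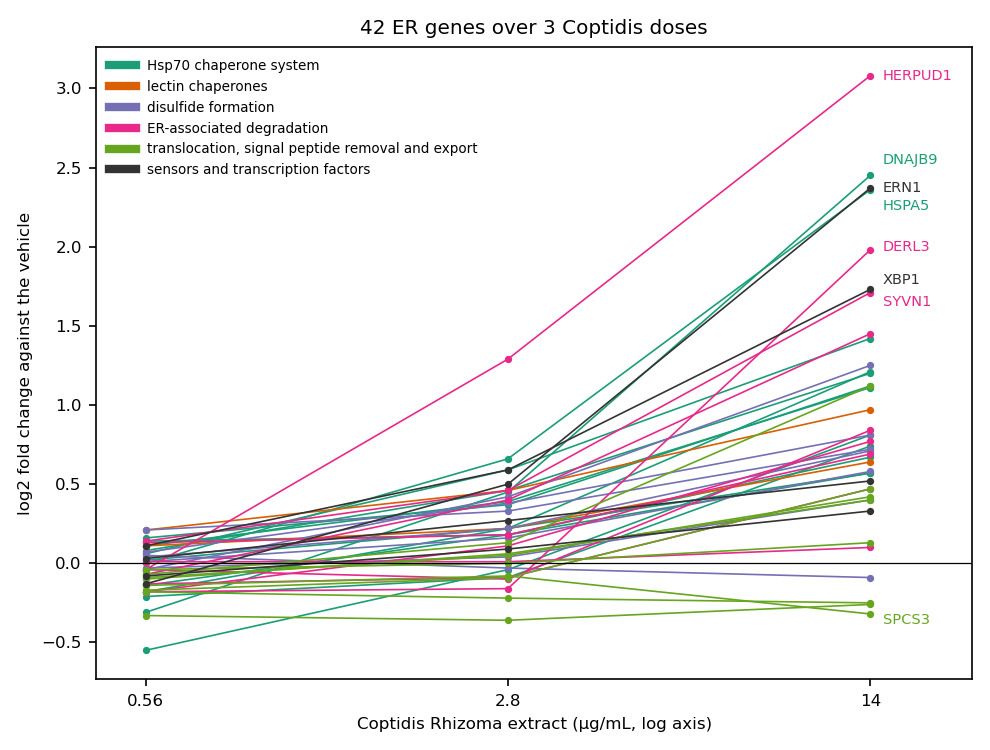
Log2 fold change against the vehicle (y axis) of each of 42 ER genes (lines, coloured by role) over 3 Coptidis doses (x axis, µg/mL, log scale). HERPUD1 leads at 2.8 and 14 µg/mL, DERL3 rises between those 2 doses, and SPCS3 ends below 0.

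With Bupleuri more of the 42 genes fell than rose. Its high dose against its low dose lowered 22 of the 42 and raised 5, and 15 did not pass. Over all genes, 39.2% passed, 18.6% lower and 20.6% higher (edgeR). HSPA5 had 3535, 3494 and 3703 CPM at the low dose and 2665, 2580 and 2699 CPM at the high dose (log2 -0.43 ± 0.03, edgeR adjusted p = 3.37e-17). The doses did not overlap, and the high dose lay below all 3 vehicle libraries. HSP90B1 fell from 1603, 1544 and 1588 to 1301, 1290 and 1336 CPM (-0.27 ± 0.03). HYOU1 fell from 511, 499 and 497 to 409, 397 and 390 CPM (-0.33 ± 0.03), and PDIA4 from 761, 732 and 765 to 609, 601 and 637 CPM (-0.29 ± 0.03). All of the high-dose libraries lay below all of the low-dose libraries in these genes. They were picked as called members of smallest p, so the separation is no further test. MANF, a small secreted ER protein (-0.43), PDIA5 (-0.44) and SDF2L1 (-0.40) fell about as much as HSPA5. The 5 that rose were ERN1 (0.48 ± 0.07), ERO1A (0.31 ± 0.03), EDEM1 (0.28 ± 0.04), DNAJB9 (0.18 ± 0.06) and SSR3 (0.11 ± 0.04). ERN1 went from 17, 19 and 16.3 to 25.6, 23.7 and 23.3 CPM. HERPUD1 had 63.1, 66.1 and 70.1 CPM at the low dose and 63.8, 66.6 and 68.2 CPM at the high dose, and did not pass. The 5 epithelial markers moved in the same comparison, from a summed 231 to 254 CPM at the low dose to 60.5 to 64 CPM at the high dose, with EPCAM and CDH1 at no more than 0.276 CPM in any library. The 5 leukocyte and microglia markers went from 203 to 225 CPM to 276 to 301 CPM, with AIF1 and ITGAM at no more than 0.216 CPM, and the 9 astrocyte and glioma markers from 7259 to 7580 CPM to 6472 to 6671 CPM. The neuron list went from 170 to 174 CPM to 121 to 126 CPM, the endothelial list from 22.7 to 27.9 CPM to 36.3 to 38.4 CPM, and the oligodendrocyte list from 6.75 to 7.26 CPM to 8.14 to 8.66 CPM. Their part in the result was not tested.

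The difference between the Coptidis and Bupleuri dose effects, each the high minus the low dose on the log2 scale, was tested directly. It was above 0 for 40 genes and below 0 for none (edgeR, 40 and 1 at an unadjusted p under 0.05, and 40 and 0 with DESeq2), with 27.4% and 28% of all genes above and below. The median difference was 0.85, against -0.03 for all genes. It reached 3.12 ± 0.08 for HERPUD1, 2.80 ± 0.05 for HSPA5, 2.58 ± 0.08 for DNAJB9 and 2.02 ± 0.10 for ERN1. SPCS3 (-0.12, edgeR adjusted p = 0.0704) and SEC61G (0.05, adjusted p = 0.764) did not pass. Of the 24 genes called in both extracts, 5 moved the same way and 19 the opposite way. A like count over all genes was not made. The extracts carry different set numbers, and each was measured against its own low dose.

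**Figure D4:**
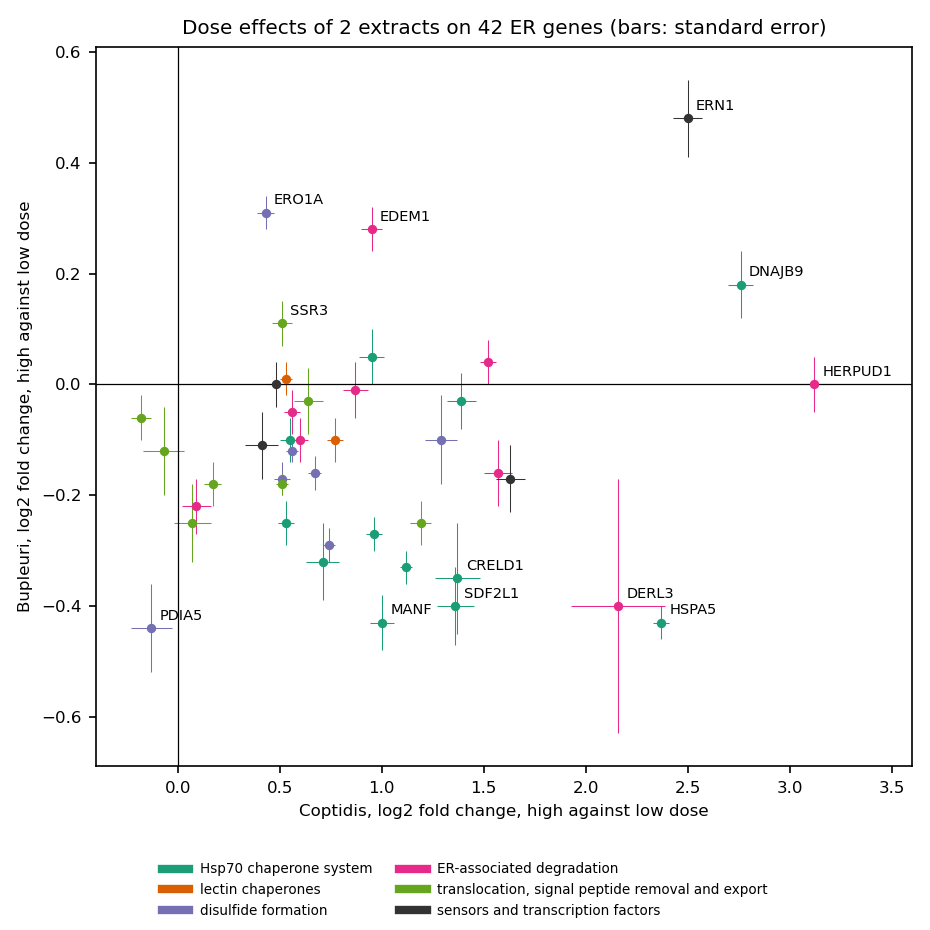
Log2 fold change of 42 ER genes between high and low dose of Coptidis (x axis) and of Bupleuri (y axis), with standard errors as bars and colours by role. HSPA5 lies at 2.37 and -0.43 and HERPUD1 at 3.12 and close to 0, whereas ERN1, ERO1A, EDEM1, DNAJB9 and SSR3 are above 0 on both axes and passed in both.

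Cimicifugae and Yijung-tang raised part of the set by small steps. For Cimicifugae 20 genes rose and none fell between low and high dose (edgeR, 25 at an unadjusted p under 0.05, of which 2 were lower, and 21 and 0 with DESeq2), against 4.88% and 5.81% of all genes, 10.7% in all. Its median was 0.10, and without a filter on low counts 14 rose and 2 fell. HERPUD1 had 64.8, 69.4 and 65.5 CPM at the low dose and 90, 91.7 and 97.3 CPM at the high dose (log2 0.48 ± 0.05, edgeR adjusted p = 7.7e-10). HSPA5 went from 3723, 3611 and 3684 to 4248, 4355 and 4237 CPM (0.22 ± 0.03), DNAJB9 from 28, 25.1 and 28 to 32.6, 35.3 and 34.8 CPM (0.34 ± 0.06), and ERO1B from 11.9, 11.8 and 11.9 to 16, 16.3 and 16.6 CPM (0.46 ± 0.07). In all 4 genes every high-dose library was above every low-dose library. These 4 were picked as the called members of smallest p, so the separation follows from the choice. None of the 8 translocation and export genes passed. Without replicate 2 of low-dose Cimicifugae the count was 13. Summed epithelial markers stood at 185 to 200 CPM at the low and 121 to 124 CPM at the high dose, neuron markers at 171 to 176 and 163 to 169 CPM, and oligodendrocyte markers at 6.13 to 6.76 and 7.21 to 7.73 CPM, while the other 3 lists overlapped between doses. Whether they bear on the result was not tested.

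Yijung-tang was compared between high and medium dose, with 2 libraries each, because 1 low-dose library was left. Here 16 genes rose and none fell (edgeR, 24 and 1 at an unadjusted p under 0.05, 17 and 0 with DESeq2), against 4.11% and 5.05% of all genes, 9.16% in all, with a median of 0.12. HERPUD1 rose from 68.1 and 70.9 to 110 and 115 CPM (log2 0.69 ± 0.06, edgeR adjusted p = 3.74e-12). HSPA5 rose from 4214 and 4301 to 5321 and 5308 CPM (0.32 ± 0.03), HYOU1 from 524 and 536 to 643 and 619 CPM (0.25 ± 0.03), and PDIA4 from 834 and 865 to 1030 and 1000 CPM (0.25 ± 0.03). The doses were apart in all 4 genes, which were picked as the called members of smallest p. The lone low-dose library had 3719 CPM of HSPA5 and 66.9 CPM of HERPUD1, below the medium dose. ERN1 did not pass (0.17). From the medium to the high dose the epithelial list went from 195 to 200 CPM to 120 to 125 CPM, the neuron list from 171 CPM in both libraries to 140 to 142 CPM, the leukocyte and microglia list from 206 to 220 CPM to 255 to 258 CPM, and the astrocyte and glioma list from 6873 to 6930 CPM to 6167 to 6217 CPM. Any part of these shifts in the gene changes was not tested. The count was 10 without replicate 1 of the high dose, without replicate 2 of the high dose, or without replicate 2 of the medium dose.

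Zizyphi and Citri lowered part of the set by small steps, and ERN1 was among the 2 genes that rose with each. Between low and high dose, 12 genes fell and 2 rose with Zizyphi (edgeR), against 4.28% and 3.12% of all genes, 7.4% in all. With Citri 14 fell and 2 rose, against 7.34% and 6.44%, 13.8% in all. The 2 rises in each, 4.76% of the set, were near the shares of all genes that rose. The median was -0.07 in both. With only the 2 groups compared in the fit, 4 fell and 1 rose with Zizyphi (1.54% and 0.813% of all genes). With Citri 12 fell and 2 rose in such a fit (7.45% and 6.49%). HSPA5 went from 3463 and 3391 to 2675 and 2632 CPM with Zizyphi (log2 -0.37 ± 0.03, edgeR adjusted p = 3.69e-10) and from 3412, 3469 and 3430 to 2885, 3119 and 2902 CPM with Citri (-0.21 ± 0.03). HYOU1 fell by 0.21 with Zizyphi and by 0.16 with Citri, on the log2 scale. PDIA4 fell from 711 and 727 to 609 and 578 CPM with Zizyphi (-0.27 ± 0.03). With Citri, DERL2 fell from 45.1, 42 and 45.6 to 34.2, 38.4 and 37 CPM (-0.28 ± 0.05) and SEC61A1 from 419, 411 and 427 to 371, 378 and 377 CPM (-0.16 ± 0.02). All of these pairs of groups were apart, in genes picked as called members of smallest p. ERN1 rose from 16.7 and 17.4 to 22.6 and 23.3 CPM with Zizyphi (0.44 ± 0.08) and from 19.4, 19.6 and 17.6 to 24.2, 25.3 and 22.6 CPM with Citri (0.35 ± 0.07). The other rises were SEC24D with Zizyphi (0.17) and ERO1B with Citri (0.29). The 11 genes called in both extracts all moved the same way, a count not made over all genes. Between low and high dose of Citri, epithelial markers went from 220 to 221 CPM to 134 to 145 CPM, leukocyte and microglia markers from 203 to 226 CPM to 240 to 243 CPM, astrocyte and glioma markers from 7132 to 7572 CPM to 6645 to 6922 CPM, and neuron markers from 161 to 172 CPM to 158 CPM in all 3 libraries. With Zizyphi, epithelial markers went from 204 to 218 CPM to 181 to 195 CPM, leukocyte and microglia markers from 207 to 234 CPM to 179 to 204 CPM, endothelial markers from 28.5 to 29.1 CPM to 32.1 to 32.8 CPM, and oligodendrocyte markers from 6.52 to 6.77 CPM to 7.94 to 8.64 CPM. Their part in these changes was not tested. The Zizyphi count of 14 became 8 without replicate 2 of the low dose and 9 without replicate 3 of the high dose.

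Citri and Cimicifugae share a set number and doses, so their high doses were compared directly. In Citri 21 genes were lower and none higher (edgeR, 28 and 0 at an unadjusted p under 0.05, and 23 and 0 with DESeq2), against 3.24% and 3.43% of all genes. HSPA5 differed by -0.53 ± 0.03, MANF by -0.42 ± 0.05, HERPUD1 by -0.40 ± 0.05 and CALR by -0.36 ± 0.04 (log2, Citri minus Cimicifugae). ERN1, which rose with both extracts, did not pass (0.08 ± 0.07).

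Between low and high dose of Aconiti 5 genes rose and 3 fell (edgeR), against 4.28% and 5.25% of all genes, 9.53% in all, and the median was -0.01. ERN1 rose from 16, 19.7 and 17 to 24.5 and 23.1 CPM (log2 0.44 ± 0.07, edgeR adjusted p = 2.88e-05), and DNAJB9 from 29.1, 27.2 and 26.2 to 33.8 and 37 CPM (0.37 ± 0.06). ERO1B (0.32), HERPUD1 (0.20) and EDEM1 (0.19) also rose. HSPA5 fell from 3455, 3560 and 3480 to 3112 and 3207 CPM (-0.15 ± 0.03) and HSP90B1 from 1590, 1591 and 1587 to 1397 and 1424 CPM (-0.17 ± 0.03), and CALR fell as well (-0.15). All of these groups were apart, in genes that were called, of which ERN1, DNAJB9, HSPA5 and HSP90B1 were picked for smallest p. With the divergent libraries kept, HSP90B1 stood at -0.56 and DNAJB9 at -0.03, and neither passed. The count of 8 became 5 without replicate 3 of the high dose. With DESeq2 it was 12 (5 rose, 7 fell), and with only these 2 groups in the fit it was 14. Epithelial markers went from 222 to 228 CPM to 152 to 157 CPM, astrocyte and glioma markers from 7114 to 7283 CPM to 6535 to 6657 CPM, neuron markers from 163 to 171 CPM to 183 to 186 CPM, and oligodendrocyte markers from 6.96 to 7.36 CPM to 8.47 to 9.22 CPM, and their part was not tested. The Bupleuri dose effect was below that of Aconiti for 15 genes and above it for 1 (edgeR, against 10.5% and 13% of all genes), with HSPA5 at -0.28 ± 0.04 and HYOU1 at -0.31 ± 0.04. The 1 gene above was ERO1A (0.24 ± 0.05).

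**Figure D5:**
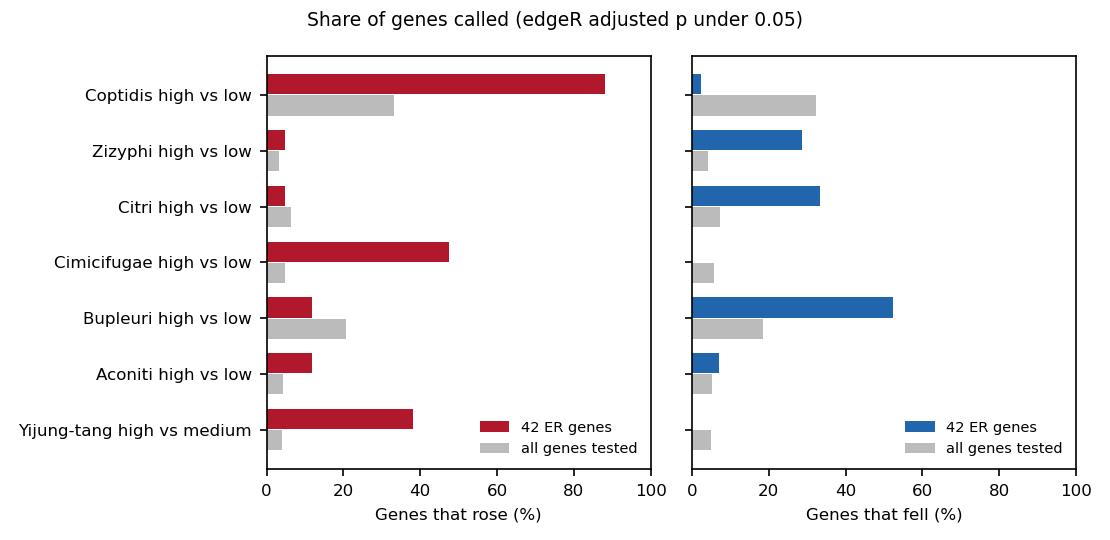
Percent of the 42 ER genes (coloured bars) and of all 17680 genes tested (grey bars) that rose (left) or fell (right) in each dose comparison, by edgeR adjusted p under 0.05. Of the 42 genes 37, 20 and 16 rose with Coptidis, Cimicifugae and Yijung-tang, and 22, 14 and 12 fell with Bupleuri, Citri and Zizyphi.

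Across the 7 dose comparisons the genes differed in how often and which way they moved. ERN1 rose in 6 and fell in none. DNAJB9 and EDEM1 rose in 5, and HERPUD1 and ERO1B in 4, with no fall in any. These are changes between doses of an extract, and levels against the vehicle are given below. HSPA5, HSP90B1 and CALR were called in all 7, with 3 rises and 4 falls each. SEC61G was called in none. Coptidis shared its direction with Yijung-tang in 16 of 16 genes called in both and with Cimicifugae in 19 of 19, whereas with Citri 14 of 16 and with Zizyphi 12 of 14 went the opposite way. Calls per gene over the 7 comparisons and shared direction were counted for the members only. Whether other genes are called as often, or share direction as often, is therefore not known.

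Members with and without an element in the promoter window are given as a description. In Coptidis the 11 with ERSE or ERSE-II all rose (median log2 1.12, lowest 0.53), and of the 27 without one 22 rose and 1 fell (median 0.56). DNAJB9 and ERN1, among the largest rises, held neither element in the window searched. In Bupleuri 8 of the 11 fell and none rose (median -0.17), and of the 27 without one 11 fell and 5 rose (median -0.10). The 5 that rose with Bupleuri held neither ERSE nor ERSE-II, though SSR3 held the XBP1-type element TGACGTGG. Medians with and without were 0.15 and 0.08 in Cimicifugae, 0.21 and 0.09 in Yijung-tang, -0.19 and -0.03 in Zizyphi, -0.09 and -0.07 in Citri, and -0.05 and -0.01 in Aconiti, where 2 of the 11 with an element rose and 3 fell.

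The single Banhasasim-tang libraries allow no test. A gene was counted when it lay at least 1.5-fold from the vehicle mean and outside the vehicle range. At 500 µg/mL 18 of the 42 genes were higher and none lower, against 13.2% and 13% of all genes, with a median log2 difference of 0.52. HERPUD1 stood at 397 CPM (4.99-fold above the vehicle mean), HSPA5 at 15453 CPM (4.16-fold), CRELD1 at 27.6 CPM (2.79-fold), ERN1 at 53.6 CPM (2.71-fold) and DNAJB9 at 89.1 CPM (2.60-fold). At 100 µg/mL 4 were higher (6.6% of all genes), HERPUD1, HSPA5, CRELD1 and CALR, and none lower (3.74%). At 20 µg/mL none of the 42 was counted (4.27% of all genes higher, 2.53% lower), nor in the low-dose Yijung-tang library (4.3% and 2.17%). The 3 Banhasasim-tang libraries had 4095, 6136 and 15453 CPM of HSPA5 from the lowest dose to the highest.

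Against the vehicle, some members were called the same way in most extract groups, though none in all of them. The 20 extract groups with at least 2 libraries share the 3 vehicle libraries, so these comparisons are not independent. A gene that deviated in the vehicle libraries would recur in all of them. Recurrence was counted for the members only, so whether the counts of groups per gene are unusual is not known. SEC61B had 85, 83.8 and 74.7 CPM in the vehicle and was lower in 19 of 20 groups, and in all 6 low-dose groups. SPCS3 was lower in 18, and SEC61G and DNAJC3 in 17. CALR and PDIA3 were higher in 16 of 20 groups and in all 6 low-dose groups, and SYVN1 and OS9 were higher in 15, with none of these 4 lower in any. DNAJB9 was lower in all 6 low-dose groups (log2 -0.40 to -0.31) and higher in 2 of 20, with 36.2, 34 and 32.7 CPM in the vehicle. After its rises with Cimicifugae, Aconiti and Yijung-tang DNAJB9 stood at 32.6 to 37 CPM, overlapping the vehicle libraries, and after its rise with Bupleuri at 29.9, 30.1 and 28.4 CPM, below all of them. EDEM1 was lower than the vehicle in 12 groups and higher in 1, and after its rises outside Coptidis it stood at 121 to 129 CPM, beside 126, 119 and 118 CPM in the vehicle. HERPUD1 was lower in 14 groups and higher in 4, ERO1B lower in 4 and higher in 3, and ERN1 lower in 2 and higher in 7. At the low doses 3 genes were higher and 13 lower with Zizyphi (background 4.82% and 7%), 4 and 12 with Citri (6.82% and 9.26%), 5 and 17 with Cimicifugae (8.78% and 12%), 7 and 14 with Bupleuri (12% and 14.9%), and 3 and 15 with Aconiti (8.45% and 11.6%). At the medium doses 1 was higher and 14 lower with Zizyphi (5.58% and 8.11%), 4 and 15 with Citri (7.61% and 10.2%), 10 and 14 with Cimicifugae (14.3% and 17.5%), 5 and 17 with Bupleuri (10.1% and 12.6%), 4 and 15 with Aconiti (11.9% and 14.3%), and 13 and 10 with Yijung-tang (6.43% and 8.9%). With Coptidis included, calls summed over the 42 genes and the extract groups came to 147 at the medium and 107 at the low doses. In these sums a gene counts once for each group in which it passed. Of all genes, 13.7% (Zizyphi) to 31.8% (Cimicifugae) passed at the medium dose of an extract. At the low dose 7.32% (Coptidis) to 26.9% (Bupleuri) passed.

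At the high doses, edgeR called 1 gene higher and 23 lower with Zizyphi (background 9.64% and 12%), 3 and 21 with Citri (14.3% and 17.1%), 19 and 12 with Cimicifugae (16.5% and 19.2%), 3 and 26 with Bupleuri (20.2% and 19.4%, 39.6% in all), 4 and 15 with Aconiti (12.7% and 15%), and 19 and 5 with Yijung-tang (14.1% and 16.7%). The Aconiti count of 19 became 12 without vehicle replicate 1, 11 without vehicle replicate 2, 9 without high-dose replicate 2 and 10 without high-dose replicate 3. HSPA5 was above the vehicle in 5 groups and below it in 11, and XBP1 was above it in 5 and below it in none.

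Other genes of the pathway were read from lists drawn up beside the 42, also with earlier results of these data known. The shares over all genes for Coptidis, 33.2% higher and 32.4% lower, apply to each count that follows. In Coptidis, all 14 genes of the ATF4 arm rose between low and high dose (median log2 2.63), among them TRIB3 (4.55 ± 0.06), a pseudokinase induced through ATF4, and PPP1R15A (3.52 ± 0.05), the phosphatase subunit that reverses PERK's mark. Of 31 other folding enzymes and chaperones 17 rose (54.8%) and 9 fell (29%), with QSOX1, a disulfide-forming oxidase, at 0.87 and SERPINH1, the collagen chaperone, at -0.79. Of 25 other degradation genes 15 rose and 6 fell, with SELENOS at 1.44 and the ubiquitin ligase RNF185 at 0.86. Of 23 export genes 16 rose and 3 fell, with the COPII subunit SEC23B at 1.08 and the cargo receptor TMED7 at 0.78. Of 21 genes of glycan processing 15 rose and 2 fell, with the oligosaccharyltransferase subunit DDOST at 0.61 and the glucosidase subunit GANAB at 0.39. Of 21 other translocation genes 14 rose and 4 fell, with the signal recognition particle subunit SRP72 at 0.62 and its receptor subunit SRPRA at 0.71. Of 9 tested genes of ATF6 processing and other ER transcription factors 3 rose and 3 fell (33.3% each, near those shares), with CREB3 at 0.44 and NFE2L1 at 0.43. Cytosolic heat shock genes went the other way, with 10 of 15 lower and 4 higher. HSPA8 fell from 1283 ± 14.1 to 409 ± 10.3 CPM (SD, n = 2 and 2, edgeR adjusted p = 2.47e-30). HSPA1A stood at -2.94, but its reads can be split with the near-identical HSPA1B.

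The ATF4 arm and the folding genes did not move together in every extract. In Bupleuri 12 of the 14 ATF4-arm genes rose and none fell (median log2 0.56), while 19 of 31 other folding genes fell and 1 rose, 12 of 21 glycan genes fell and 11 of 23 export genes fell, against 20.6% of all genes higher and 18.6% lower. In Aconiti 11 of the 14 rose and none fell (median 0.28), with 0 rises and 3 falls among the 31 other folding genes (4.28% and 5.25% of all genes). In Yijung-tang 10 of 14 rose and none fell (median 0.69, with 4.11% and 5.05% of all genes), and in Cimicifugae 6 and none (median 0.22, with 4.88% and 5.81%). In Zizyphi 4 of the 14 fell and none rose (4.28% and 3.12% of all genes), and in Citri 4 fell and 2 rose (7.34% and 6.44%). In each of the 5 dose comparisons outside Coptidis and Bupleuri, at most 3 of the 31 other folding genes passed.

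Reading of some members is limited by neighbours. The library kit is directional by the labels, with the strand setting of the counting not given in the sources used here. Exons of 23 of the 42 genes overlap those of another annotated gene, mostly on the opposite strand, such as DNAJB9 (PNPLA8 and THAP5), HSP90B1 (C12orf73), CRELD2 (ALG12), SYVN1 (MRPL49) and DERL3 (SMARCB1). On the same strand, where a directional kit cannot separate reads, SYVN1 overlaps FAU, DNAJB11 overlaps AC068631.2, SSR1 overlaps CAGE1 and PDIA5 overlaps SEC22A, and HSP90B1, PDIA5 and SYVN1 hold a miRNA. Annotated pseudogenes share the name of PDIA3 (2), SSR1 (2), SPCS2 (4) and XBP1 (1). With the 2 divergent libraries kept, Coptidis still called 34 of the 42 genes, all higher, whereas edgeR counts of 0 (Zizyphi), 0 (Citri), 1 (Cimicifugae), 6 (Bupleuri), 4 (Aconiti) and 1 (Yijung-tang) were left for the other dose comparisons. All groups shared that fit, including those without a divergent library. Over all genes that fit called 20.7% higher and 22.7% lower for Coptidis, and 7.06% and 6.18% for Bupleuri. The shares were 6.06% and 2.72% for Aconiti, 0.493% and 0.561% for Citri, and 0.286% and 0.325% for Cimicifugae. For Yijung-tang they were 0.269% and 0.14%, and for Zizyphi 0.0505% and 0.101%. At an unadjusted p under 0.05 that fit gave 4 genes for Zizyphi and 6 for Citri, and DESeq2 without these libraries gave 15 and 17.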

How the data were processed

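RNA libraries of SW1783 cells, treated for 24 h with vehicle or herbal extracts, were analysed from the deposited table of expected counts for 60675 genes in 60 libraries. Per the submitters' processing notes, the authors' tools included RSEM 1.3.3, STAR 2.7.3a, Trim Galore 0.6.5 and FastQC 0.11.9, with the hg38 build, the annotation and strand setting being not given in the sources used here. Of the deposited values 9.18% were not whole, and expected counts were rounded. Libraries were matched to groups through GEO's titles and to columns through its descriptions.

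The 2 divergent libraries (11329310 and 15421648 counts) were left out, as the rule for the gene set asks. In 54 libraries of 21 groups with at least 2 libraries, genes were kept by filterByExpr (minimum count 10), scaled by TMM and tested with edgeR 4.0.16 in R 4.3.3 (glmQLFit and glmQLFTest, 33 residual degrees of freedom), with Benjamini-Hochberg adjustment over 17680 genes at 0.05. A log2 fold change is first minus second group, and its standard error was taken as |log2 fold change| over the root of the F statistic. Groups of 1 library were set against the vehicle without a test (log2 CPM, prior count 2). The fit was tested on simulated data. DESeq2 1.42.0 was an alternative. No replicate block was used. Gene positions and exon overlaps come from GENCODE v29 (GRCh38), promoter windows from RefSeq.

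Named were, per role, the 2 largest called changes in Coptidis, up to 4 called members of smallest p in each other extract, and HSPA5, HSP90B1, XBP1, ERN1, EIF2AK3, ATF6, EDEM1 and DNAJB9 in Coptidis. For other pathway lists up to 2 genes of smallest p in Coptidis were named. Further members appear with their values after these were seen. Separation of groups was read in genes already named and was not counted over all genes. Members and lists were chosen with earlier results of these data known.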

Additional observations from a re-analysis of the deposited data

Results flagged for a closer look

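Differences between extracts in the response to dose were tested directly and drew attention in 2 pairs. The Coptidis and Bupleuri dose effects differed for 40 of the 42 genes (edgeR adjusted p under 0.05), all toward Coptidis. Of these, 19 rose in Coptidis and fell in Bupleuri, a count not made over all genes. On the log2 scale the difference was 2.80 for HSPA5, 1.79 for XBP1, 1.76 for SDF2L1, 1.72 for CRELD1 and for SYVN1, 1.45 for HYOU1, 1.44 for SEC24D, 1.43 for MANF, 1.22 for HSP90B1, and 1.03 for PDIA4 and for CRELD2. It was 0.87 for CALR, 0.83 for PDIA6, 0.78 for DNAJB11, 0.70 for DERL1 and for SEC61A1, 0.69 for P4HB, 0.68 for PDIA3 and 0.34 for SSR1. The Bupleuri and Aconiti dose effects, from the same label set, differed for 16 genes, 15 of them lower in Bupleuri.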

How the results depend on the processing

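Of 40 fold changes of single genes, 428 refits gave 407 with the same direction and side of the threshold, 20 that no longer passed and 1 reversed. Of those 20, 19 came from keeping the 2 divergent libraries, which also reversed DNAJB9 in Aconiti (-0.03), and the other was HYOU1 in Zizyphi with only the groups compared in the fit. Keeping the divergent libraries left counts of 0 members for Zizyphi and for Citri (4 and 6 at an unadjusted p under 0.05, edgeR), 1 for Cimicifugae, 6 for Bupleuri, 4 for Aconiti and 1 for Yijung-tang between doses, with the shares over all genes given above. At high dose against the vehicle it left 2 for Zizyphi (0.891% of all genes higher and 0.662% lower) and 1 for Citri (2.88% and 1.68%). It left 3 for Cimicifugae (4.71% and 2.27%), 5 for Bupleuri (8.3% and 5.58%) and 7 for Yijung-tang (2.96% and 1.36%). It left 6 for Bupleuri minus Aconiti (4.25% of all genes above and 5.39% below) and 2 for Citri against Cimicifugae (0.0953% and 0.235%). Over the medium doses it left 8, with at most 2.77% of all genes higher and 1.22% lower in any extract. Over the low doses it left 0 (at most 0.544% and 0.235%), with 11 at an unadjusted p under 0.05 (edgeR). DESeq2 without these libraries called 110 over the low doses. All groups were in 1 fit, and outside Aconiti no dose comparison held either divergent library. With both kept, medians of the 42 were 0.72 (Coptidis), -0.07 (Zizyphi), -0.06 (Citri), 0.10 (Cimicifugae), -0.12 (Bupleuri) and 0.12 (Yijung-tang), near the main fit. Aconiti went from -0.01 to -0.06. Between replicates, chi-squared per degree of freedom was 188.1 to 302.4 in pairs with a divergent library and 1.93 to 16.13 in the others. The cause of the lost calls was not tested. With only the groups compared in the fit, counts were 5 for Zizyphi and 14 for Aconiti between doses. Without a filter on low counts, high-dose Aconiti against the vehicle gave 12. At 2-fold, the single Banhasasim-tang libraries gave 11 members at the high and 0 at the medium dose. Leaving out 1 library at a time gave 38 to 38 members for Coptidis between doses, 8 to 12 for Zizyphi, 12 to 15 for Citri, 13 to 17 for Cimicifugae, 23 to 27 for Bupleuri, 5 to 8 for Aconiti and 10 to 15 for Yijung-tang. Against the vehicle at high dose it gave 38 to 40, 16 to 22, 20 to 24, 27 to 29, 28 to 29, 9 to 16 and 20 to 25 in the same order. It gave 38 to 40 for Coptidis minus Bupleuri, 14 to 20 for Bupleuri minus Aconiti, 17 to 19 for Citri against Cimicifugae, 124 to 148 over the medium doses and 76 to 107 over the low doses. Replicate numbers did not pair the libraries, since same-numbered libraries deviated with correlations of -0.0678 to 0.0848, and a replicate block left 38 calls for Coptidis and 27 for Bupleuri and moved Aconiti from 8 to 12. Groups of 2 libraries, few reads for DERL3 and single Banhasasim-tang libraries limit precision.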
